A study of Mus musculus with 20 samples.

Results

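Oct4 (gene symbol Pou5f1), Sox2, Klf4 and Myc are the transcription factors delivered to reprogram the fibroblasts of this series, and their transcripts are described here across all 20 libraries. The 4 genes were taken by name from a table of 15757 genes, and all 4 were present and measured in every library. OG2 mouse embryonic fibroblasts at passage 2, whose Oct4 regulatory sequence drives a fluorescent reporter, were infected with retroviral stocks made in the packaging line Plat-E, and the library titles give the mix as OSKM. The cells were then kept in iCD1, a serum-free reprogramming medium.

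The knockdown arm received a hairpin aimed at Ddx10, which encodes an RNA helicase of ribosome assembly, and the control arm received an shRNA against luciferase, a gene that mouse cells lack. Both arms carried the same factor mix and both were sampled at days 0, 1, 3, 5 and 7, with 2 libraries for each arm and day. The labels give neither the hairpin sequence nor a rescue with a resistant Ddx10. They do not say whether the 2 libraries of a group came from separate cultures, so every p-value below measures only the spread between these libraries. No label gives a batch. A read from the coding sequence of a factor can come from the retroviral copy or from the cell's own gene, and the table joins them, so each value below is their sum. In bulk RNA, fewer cells with a transcript and less of it per cell cannot be told apart.

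Oct4 is a POU domain factor and Sox2 an HMG box factor, and in mouse embryonic stem cells they bind side by side at the control regions of many pluripotency genes, their own genes included. Klf4 is a zinc finger factor that also drives epithelial genes, and Myc, which pairs with Max on E-box sequences, drives growth and ribosome genes. In reprogramming, retroviral copies supply the factors first, the fibroblast program is shut down, epithelial genes come on, and the cell's own pluripotency genes follow as the viral copies are silenced.

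In mm10, the genome named in the submitters' processing notes, the cell's own genes lie on 4 chromosomes. Pou5f1 is at chr17:35506018-35510772 on the plus strand with 5 exons, and the antisense gene Gm19553, not analysed here, overlaps it. Sox2 is a single-exon gene at chr3:34650405-34652461 on the plus strand, inside the long noncoding gene Sox2ot, which is not analysed here and runs on the same strand. Klf4 is at chr4:55527143-55532466 on the minus strand with 5 exons. Myc is at chr15:61985391-61990374 on the plus strand with 3 exons. Whether the reads were counted by strand is not given in the sources used here.

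The promoters below are shown because the factors are known to bind such elements. The sequences, from RefSeq on GRCm38.p6, run from 250 bases before to 50 bases after the first listed start site. An entry was found for 3 of the 4 factors, and Myc is named only. Nanog, a pluripotency gene that Oct4 and Sox2 control, was added after its values were seen. Capitals mark the octamer core ATGCAAA, read as TTTGCAT on the other strand, the Sox motif ACAATG, and the E-box CACGTG. Both strands were searched for these and for the Klf4 motif GGGTGTG, and no match overlapped another. Pou5f1 is at chr17:35505782-35506081 (plus strand), Sox2 at chr3:34649745-34650044 (plus strand), Klf4 at chr4:55532426-55532725 (minus strand) and Nanog at chr6:122707239-122707538 (plus strand).
Pou5f1: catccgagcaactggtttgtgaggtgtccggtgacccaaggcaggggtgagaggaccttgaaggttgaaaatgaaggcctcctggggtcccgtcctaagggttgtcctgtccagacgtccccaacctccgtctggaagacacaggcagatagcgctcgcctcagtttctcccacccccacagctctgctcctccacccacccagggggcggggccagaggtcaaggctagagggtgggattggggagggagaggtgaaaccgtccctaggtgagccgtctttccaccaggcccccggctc
Sox2: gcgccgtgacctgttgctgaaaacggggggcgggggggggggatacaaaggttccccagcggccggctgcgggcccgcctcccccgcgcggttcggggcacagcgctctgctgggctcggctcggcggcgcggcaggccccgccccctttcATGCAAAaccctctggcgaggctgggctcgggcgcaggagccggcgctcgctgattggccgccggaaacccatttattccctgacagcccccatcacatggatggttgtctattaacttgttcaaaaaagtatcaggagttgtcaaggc
Klf4: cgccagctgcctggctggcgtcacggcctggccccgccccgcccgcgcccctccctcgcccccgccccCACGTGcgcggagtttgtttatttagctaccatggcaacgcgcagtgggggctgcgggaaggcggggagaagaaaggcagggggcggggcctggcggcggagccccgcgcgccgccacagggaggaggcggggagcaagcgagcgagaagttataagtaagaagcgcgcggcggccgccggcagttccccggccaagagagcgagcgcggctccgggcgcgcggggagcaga
Nanog: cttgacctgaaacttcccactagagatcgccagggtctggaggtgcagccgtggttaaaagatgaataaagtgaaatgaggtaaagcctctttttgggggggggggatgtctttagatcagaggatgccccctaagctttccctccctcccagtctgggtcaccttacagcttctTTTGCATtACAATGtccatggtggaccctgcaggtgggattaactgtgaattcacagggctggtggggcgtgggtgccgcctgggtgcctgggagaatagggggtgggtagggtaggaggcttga

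The Sox2 promoter held 1 octamer core, at position -99 from the start site, and the Klf4 promoter held 1 E-box, at -182. The Sox2 window ends at 34650044, before the gene start of 34650405 given above. Its -99 is therefore counted from the RefSeq start site and not from that gene start. In Nanog the octamer core and the Sox motif stood next to each other, at -75 and -67. The Pou5f1 window held none of the 4 motifs. Of 27025 promoters of the same length, 4.59% held the octamer core, 12.8% the Sox motif, 7.24% the E-box and 7.85% the Klf4 motif, so a match is a description of the letters and not evidence of binding.

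Normalized read counts added up to 15.7 M to 21.3 M in a library. The sums were highest at day 0 and lowest at day 7 in both arms, so a change over time in normalized counts depends on the scaling between libraries. Replicates correlated at 0.981 to 0.989 over all genes on the log2 scale, and the control libraries of day 1 differed most, with a median absolute log2 difference of 0.252 against 0.118 to 0.163 in the other groups. All 16 fibroblast markers were above 0 in every library, with Col1a1 between 17360 and 185700. The hairpin's target was lower in the knockdown at every day. Ddx10 (chr9:53098635-53248053, minus strand) had 313 and 319 normalized counts in knockdown libraries of day 0, against 500 and 523 in the controls, and 529 and 530.0 at day 7, against 763 and 867. As the mean of 5 days it fell by 1.00 ± 0.05 on the log2 scale (SE, limma, adjusted p = 5.9e-08).

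Pou5f1, Sox2 and Klf4 were among the most abundant transcripts from day 0 on, and Myc was lower. By level, Pou5f1 ranked between 61 and 178 of all genes in a library, Klf4 between 63 and 236, Sox2 between 171 and 451, and Myc between 2056 and 6164. Levels per kilobase of coding sequence set genes side by side only roughly, since reads can also fall on untranslated sequence. Coding bases were 1056 of 1362 transcript bases for Pou5f1, 957 of 2057 for Sox2, 1449 of 3029 for Klf4 and 1362 of 2338 for Myc. On this scale Pou5f1 stood at 14286 ± 209 in knockdown and 13978 ± 1367 in control libraries of day 0 (SD, n = 2 each). Klf4 stood at 7842 ± 309 and 8121 ± 736, Sox2 at 7600 ± 360 and 7879 ± 992, and Myc at 1300 ± 21.3 and 1440 ± 130 on the same scale (knockdown, then control). On it Klf4 and Sox2 did not differ beyond their spread at day 0, whereas Pou5f1 lay above both and Myc below. At day 7 the order on this scale was Pou5f1 (13036 ± 44.9 in knockdown, 10655 ± 160 in control), Klf4 (8465 ± 12.0, 8381 ± 628), Sox2 (7641 ± 28.2, 6724 ± 202) and Myc (510 ± 25.4, 458 ± 31.2), with no overlap between neighbours. Together the 4 genes held 0.161 to 0.182% of a library's sum at day 0, 0.265 to 0.275% at day 3 and 0.189 to 0.217% at day 7 over both arms.

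**Figure D1:**
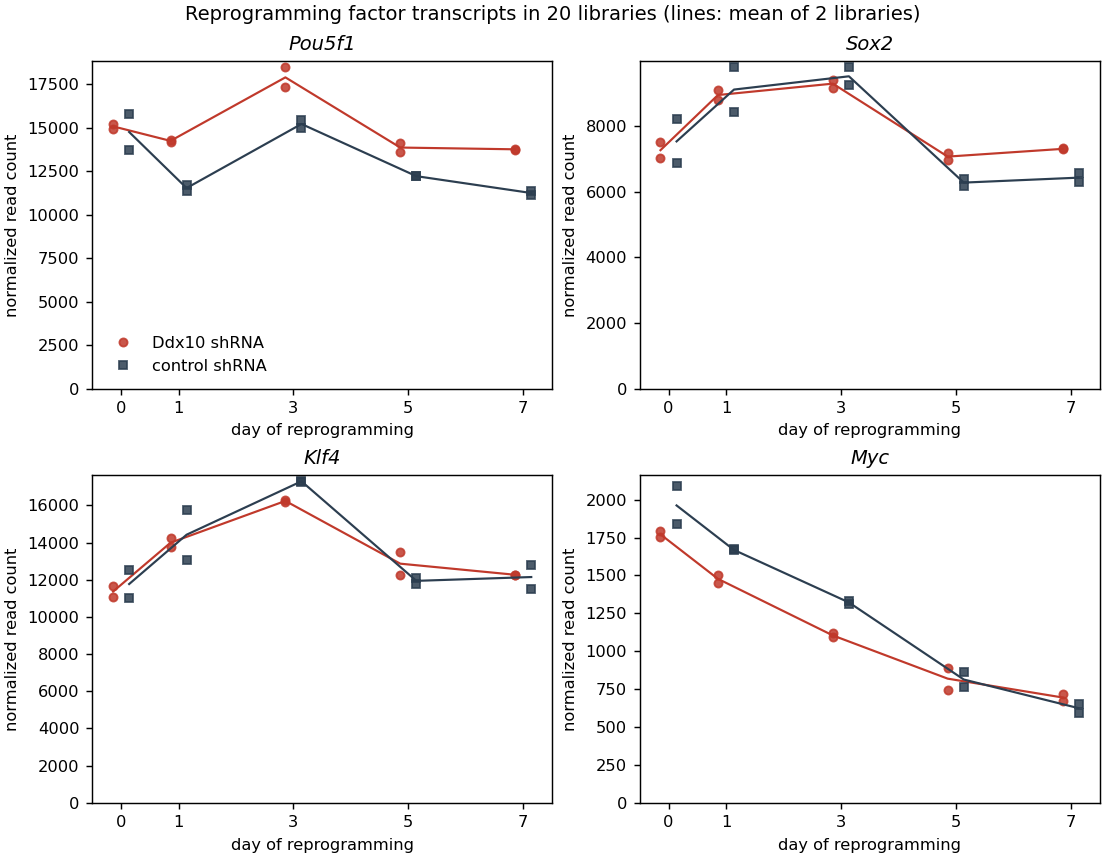
Normalized read counts of the 4 factors (y axes, from 0) by day of reprogramming (x axes), with 1 point per library, circles for the Ddx10 shRNA and squares for the control, and lines through the means of 2 libraries. Pou5f1 is higher in the knockdown on days 1 to 7, and Myc is lower at each later day. Klf4 is highest at day 3 in both arms, while Sox2 stands at similar levels on days 1 and 3.

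The comparison of arms asks whether the Ddx10 hairpin went with a different level of the factors themselves. Of the 4, Pou5f1 was called, and it was 1.16-fold higher in the knockdown as the mean of 5 days. The mean differences of Sox2, Klf4 and Myc did not pass the test, and a missed threshold does not show equal levels.

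Oct4 is the POU factor at the core of the mix. Its transcript had 14930.2 and 15242 normalized counts in knockdown libraries of day 0, against 15781 and 13741 in the controls, and 14319 and 14184 at day 1, against 11364 and 11711. At day 3 it had 18473 and 17334 in the knockdown, against 14984 and 15461 in the controls. At day 5 it had 14149.5 and 13585, against 12217 and 12226, and at day 7 it had 13732 and 13799, against 11132 and 11371. The arms overlapped at day 0, and on days 1, 3, 5 and 7 both knockdown libraries lay above both controls, as did 16.6%, 28.7%, 27.1% and 28.6% of all genes on each of those days alone. The pattern over all 4 days, described after its values were seen, held for 440 of 15757 genes (2.79%). The log2 difference, knockdown minus control, was 0.03 at day 0, 0.30 at day 1, 0.23 at day 3, 0.18 at day 5 and 0.29 at day 7, each with an SE of 0.06. Its mean over the 5 days was 0.21 ± 0.03 (SE, 95% interval 0.15 to 0.27, limma with Benjamini-Hochberg adjusted p = 0.00012). At this comparison 17.8% of all genes were called, 10.3% higher and 7.46% lower in the knockdown, and 1.31% of genes had a smaller p than Pou5f1. In 29 alternatives, among them every scaling and every left-out library, the mean difference lay between 0.19 and 0.23 and stayed past the threshold.

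By single day, 1 of the 4 factors was called at day 3 (Pou5f1, limma adjusted p = 0.043; 4.77% of all genes were called) and 1 at day 7 (Pou5f1, adjusted p = 0.010; 6.17% of all genes). None of the 4 was called at day 0 (3.31% of all genes), day 1 (0.146%) or day 5 (8.73%), where limma gave Pou5f1 adjusted p = 0.80, 0.061 and 0.085. At an unadjusted p under 0.05, 0 of the 4 passed at day 0, where 20.7% of all genes did, and Pou5f1 alone passed at day 1 (13.1% of all genes) and day 5 (22.2%). Pou5f1 and Myc passed at day 3 (19.3% of all genes), and Pou5f1 and Sox2 at day 7 (18.4%). Leaving out any 1 of the 4 libraries compared ended the single-day calls, with adjusted p between 0.098 and 0.29 at day 3 and between 0.052 and 0.10 at day 7.

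Sox2, Oct4's partner on DNA, had 7029 and 7516 normalized counts in knockdown libraries of day 0, against 8212 and 6869 in the controls. At day 1 it had 9119.5 and 8789, against 9808 and 8434, and at day 3 it had 9426 and 9178, against 9797 and 9255. From day 1 to day 3 the log2 change was 0.06 in the knockdown and 0.07 in the control, neither past the threshold (limma adjusted p = 0.65 and 0.57). At day 7 Sox2 had 7293 and 7332, against 6298 and 6572. The arms overlapped on days 0, 1 and 3, and the knockdown lay above both controls on days 5 and 7, as did 27.1% and 28.6% of all genes. At day 5 the counts were 6979 and 7174 in the knockdown, against 6388 and 6179.7 in the controls. The log2 differences of 0.17 at day 5 and 0.18 at day 7 had adjusted p = 0.24 at both days (limma), and the mean of 5 days was 0.05 ± 0.04 (SE, 95% interval -0.03 to 0.13, adjusted p = 0.39). The day 7 difference passed limma's threshold in 2 alternatives, the fit to the compared libraries alone (adjusted p = 0.035) and the fit with library weights (0.044). Those weights came out equal for the 2 libraries of a group, for example 0.352 in control day 1 and 1.495 in control day 7. They therefore weigh groups against each other and do not grade single libraries.

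Klf4, the zinc finger factor, had its highest counts at day 3 in both arms. Its log2 rise from day 1 to day 3 was not called in the knockdown (0.22, limma adjusted p = 0.066). In the control it was called (0.27, adjusted p = 0.021), as were 37.1% of all genes, and ranged from 0.13 to 0.40 with 1 library left out. Klf4 had 11047 and 11679 normalized counts in knockdown libraries of day 0, against 12521 and 11014 in the controls, and 14243 and 13737 at day 1, against 15774 and 13069. It had 16299 and 16179.5 at day 3, against 17311 and 17281, 12234 and 13492 at day 5, against 12102 and 11775, and 12278 and 12253 at day 7, against 11501 and 12787. The arms overlapped on days 0, 1 and 7, and the knockdown lay below both controls at day 3, as did 24.7% of all genes, and above both at day 5, as did 27.1%. Its mean difference was -0.01 ± 0.04 (SE, 95% interval -0.09 to 0.07, limma adjusted p = 0.88), so a difference in either direction larger than 0.09 on the log2 scale lies outside the interval.

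Myc, the growth-driving factor that reprogramming can do without, had 1750.2 and 1791 normalized counts in knockdown libraries of day 0, against 2087 and 1836 in the controls. At day 1 it had 1449.6 and 1505, against 1671 and 1665, and at day 3 it had 1091 and 1117, against 1329 and 1314. The knockdown lay below both controls on these 3 days, as did 27.5%, 18.1% and 24.7% of all genes. At day 5 the arms overlapped, with 746 and 891 in the knockdown against 864 and 762, and at day 7 the knockdown lay above, with 719 and 670.0 against 654 and 594. The log2 difference was -0.14, -0.18, -0.26, 0.01 and 0.16 from day 0 to day 7, none past the threshold, and the mean was -0.08 ± 0.04 (SE, 95% interval -0.17 to 0.01, limma adjusted p = 0.19).

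**Figure D2:**
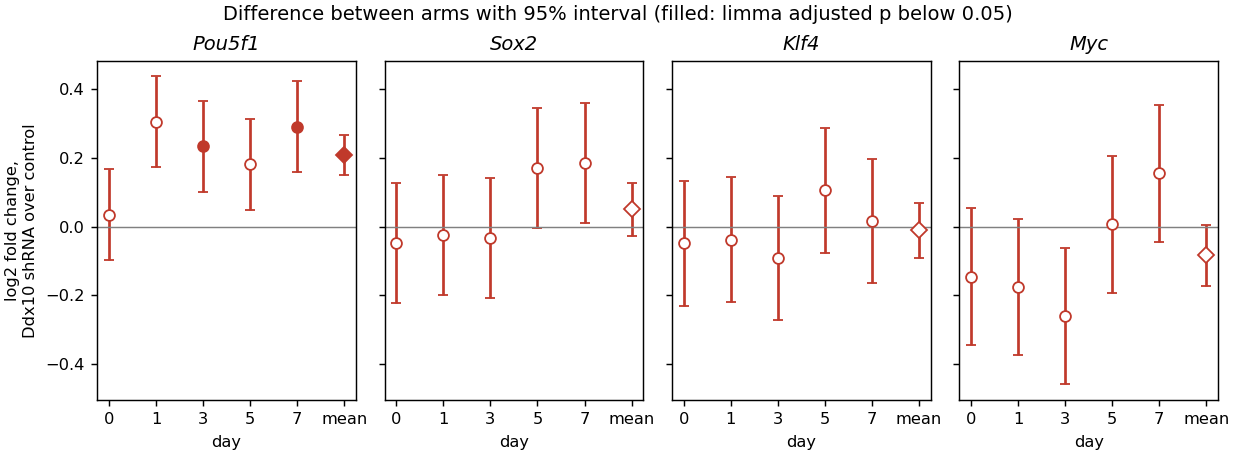
Log2 fold change of each factor, Ddx10 shRNA over control (y axis), by day and for the 5-day mean (x axis), with 95% intervals from the limma fit; filled symbols have an adjusted p below 0.05. Filled symbols appear for Pou5f1 at day 3 (0.23), day 7 (0.29) and the mean (0.21).

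A change in 1 factor against the others can be read within a library, where the scaling between libraries cancels. The ratio of Sox2 to Pou5f1 counts was 0.620 and 0.637 in knockdown libraries of day 1, against 0.720 and 0.863 in the controls, and 0.531 in both knockdown libraries of day 7, against 0.566 and 0.578. The ratio of Klf4 to Pou5f1 was 0.882 and 0.933 in the knockdown at day 3, against 1.12 and 1.16 in the controls, and 0.888 and 0.894 at day 7, against 1.03 and 1.13. For both ratios the knockdown lay below both controls on days 0, 1, 3 and 7 and overlapped them at day 5. The ratio of Myc to Pou5f1 was 0.117 and 0.118 in knockdown libraries of day 0, against 0.132 and 0.134 in the controls, and 0.0590 and 0.0645 at day 3, against 0.0850 and 0.0887. It overlapped on days 5 and 7. All these ratios share Pou5f1 as their denominator, which itself lay above both controls on days 1, 3, 5 and 7, and are given without a test. The ratio was not computed for other genes, so no share over all genes can be set beside these patterns.

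**Figure D3:**
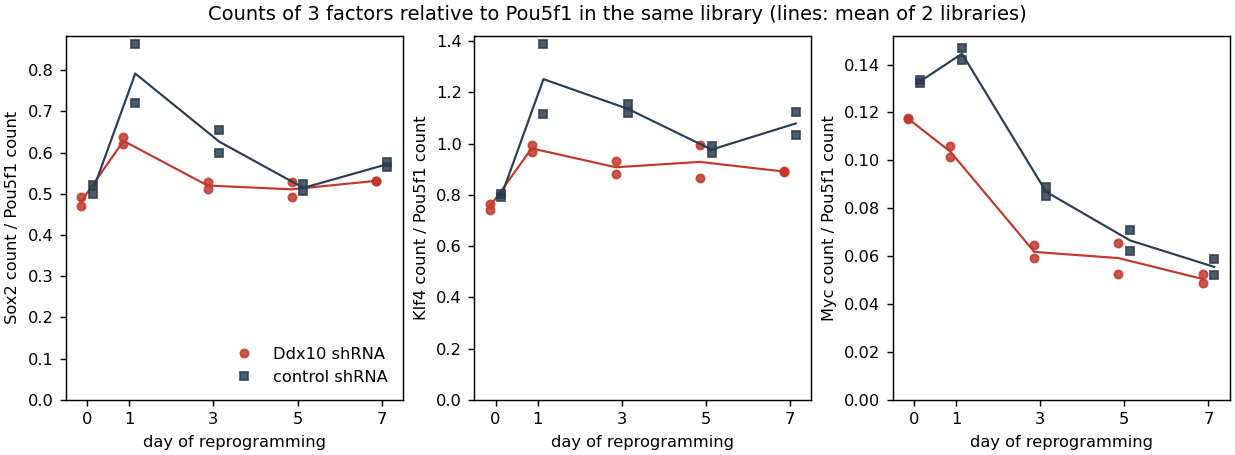
Count of Sox2, Klf4 and Myc divided by the Pou5f1 count of the same library (y axes, from 0) by day (x axes), with circles for the Ddx10 shRNA, squares for the control and lines through the means of 2 libraries. At day 1 the Sox2 ratio averages 0.628 in the knockdown and 0.792 in the control.

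Over the days, the factors followed different courses, and Myc fell the most between the first and last day. From day 0 to day 7 it fell by 1.35 ± 0.09 on the log2 scale in the knockdown (limma adjusted p = 3.4e-09) and by 1.65 ± 0.09 in the control (SE, adjusted p = 2.2e-10). It was the only factor called in the knockdown for this step, where 67.1% of all genes were called, whereas 3 of the 4 were called in the control (Pou5f1, Sox2 and Myc), where 72.3% of all genes were. The control call for Sox2 ended without replicate 1 of day 0 (-0.094, limma adjusted p = 0.34) or replicate 1 of day 7 (-0.19, adjusted p = 0.12). Every scaling and left-out library kept the fall of Myc past the threshold, between -1.40 and -0.99 in the knockdown and between -1.74 and -1.22 in the control. The day 7 libraries had 719 and 670.0 counts in the knockdown and 654 and 594 in the control, all below every day 0 library.

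Sox2 and Klf4 rose from day 0 to day 3 in both arms, and the direction and call held in every alternative, while the size depended on the scaling. By quantiles the Klf4 change was 0.98 in the knockdown and 1.15 in the control, and the Sox2 change 0.66 and 0.74. Klf4 rose by 0.52 ± 0.09 on the log2 scale in the knockdown (limma adjusted p = 8.1e-05) and by 0.56 ± 0.09 in the control (SE, adjusted p = 2.9e-05). Sox2 rose by 0.36 ± 0.08 in the knockdown (limma adjusted p = 0.0015) and by 0.34 ± 0.08 in the control (SE, adjusted p = 0.0017). Pou5f1 rose by 0.25 ± 0.06 in the knockdown (limma adjusted p = 0.0029), while its difference in the control was 0.05 ± 0.06 (SE, limma adjusted p = 0.52) and was not past the threshold. Scaled to the column sum, the Pou5f1 change was 0.54 in the knockdown and 0.42 in the control, and by quantiles it was 0.72 and 0.68, all past the threshold. All 4 factors were called at this step in the knockdown and 3 in the control, where 60.0% and 66.2% of all genes were called. Myc fell by 0.68 in the knockdown and by 0.57 in the control, the second to -0.20 and no longer past the threshold when scaled to the column sum (limma adjusted p = 0.072). At day 1, where 3 of the 4 factors were called against day 0 in the knockdown and 4 in the control (50.1% and 55.0% of all genes), Pou5f1 stood below both day 0 libraries in each arm, by a log2 difference of -0.08 ± 0.06 in the knockdown and -0.35 ± 0.06 in the control (SE). Quantile scaling changed the first to 0.27 and the second to -0.01. The day 1 calls were fragile: those of Sox2 and Klf4 ended without replicate 1 of day 0 in the knockdown (limma adjusted p = 0.060 and 0.063), and without replicate 2 of day 0 or replicate 1 of day 1 in the control (0.11 to 0.17). That of Klf4 also ended without knockdown replicate 1 of day 1 (limma adjusted p = 0.053). That of Myc ended without any 1 of the 4 knockdown libraries and without control replicate 1 of day 0 or either control library of day 1 (limma adjusted p between 0.066 and 0.32).

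Between day 3 and day 5 every factor fell in both arms. In the knockdown the log2 change was -0.37 for Pou5f1, -0.39 for Sox2, -0.34 for Klf4 and -0.44 for Myc. In the control it was -0.32 for Pou5f1, -0.60 for Sox2, -0.53 for Klf4 and -0.70 for Myc. All 8 changes passed the threshold (limma, largest adjusted p = 0.014), where 14.9% of all genes were called in the knockdown and 31.3% in the control, and 7.20% and 15.4% of all genes were called lower. The falls of Pou5f1 and Sox2 held in both arms in every alternative, and so did those of Klf4 and Myc in the control. In the knockdown, the call for Klf4 ended without replicate 1 or 2 of day 3 or replicate 1 of day 5 (adjusted p between 0.073 and 0.14) and under quantile scaling (0.073), and that for Myc without replicate 1 of day 5 (0.088). Between day 5 and day 7 limma called none of the 4 in either arm, where 0.228% (knockdown) and 0.908% (control) of all genes were called, and at an unadjusted p under 0.05 Myc alone of the 4 passed in each arm, as did 1879 (knockdown) and 2528 (control) of 15757 genes.

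**Figure D4:**
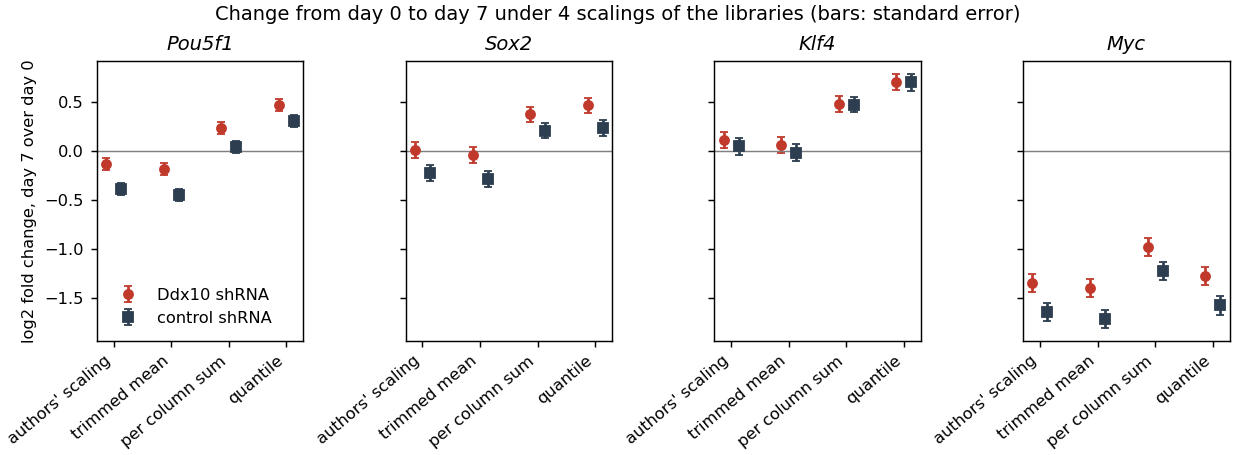
Log2 fold change of each factor, day 7 over day 0 (y axis), under the authors' scaling and 3 others (x axis), with circles for the Ddx10 shRNA, squares for the control and bars for the standard error. Myc is below 0 in every scaling, Klf4 in the knockdown is above 0 in every scaling, and Pou5f1 and Sox2 in both arms and Klf4 in the control lie on either side of 0 depending on the scaling.

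For the other factors the net change from day 0 to day 7 turned on the scaling. Pou5f1 changed by -0.13 in the knockdown and -0.39 in the control on the log2 scale, but by 0.23 and 0.04 when scaled to the column sum and by 0.47 and 0.30 under quantile scaling. Sox2 changed by 0.01 in the knockdown and -0.22 in the control, but by 0.37 and 0.20 when scaled to the column sum. Klf4 changed by 0.11 and 0.05 in the knockdown and control, and by 0.47 in both arms when scaled to the column sum. Scaling to the column sum moved the median of all genes to 0.44 in the knockdown and 0.51 in the control, from 0.08 and 0.09. Pou5f1 and Sox2 in both arms, and Klf4 in the control, were below the median of all genes under both of these scalings.

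Whether the arms differed in these changes was tested as an interaction, and limma called none of the 4 factors on any day. The share of all genes called was 0.273% for day 1, 3.73% for day 3, 7.77% for day 5 and 6.38% for day 7. The largest interaction for Pou5f1 was 0.27 ± 0.09 at day 1 (SE, limma adjusted p = 0.20), with 0.26 ± 0.09 at day 7 (0.097). At an unadjusted p under 0.05, Pou5f1 passed at days 1, 3 and 7 and Myc at day 7, as did 12.8% (day 1), 19.8% (day 3), 23.2% (day 5) and 22.2% (day 7) of all genes. Without control replicate 2 of day 0 the Pou5f1 interaction passed limma's threshold at day 1 (0.37, adjusted p = 0.0498) and day 7 (0.36, adjusted p = 0.019). These interactions share the day 0 libraries with one another.

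Genes known from embryonic stem cells as targets of Oct4 and Sox2 rose over the days in both arms. Of 20 listed, all measured, 19 rose from day 0 to day 7 in the knockdown and 18 in the control, where 36.2% and 38.6% of all genes rose. The list's medians were 3.40 and 4.41 on the log2 scale, against 0.08 and 0.09 over all genes. In each day 0 library 3 to 6 of the 20 were listed at 0. Nanog, whose promoter carries the paired motifs printed above, had 226 and 151 normalized counts in knockdown libraries of day 7, against 245 and 259 in the controls, and 6.88 and 5.93 in the knockdown at day 0, against 2.51 and 6.53. It rose by 4.65 ± 0.60 in the knockdown (limma adjusted p = 5.2e-06) and by 5.62 ± 0.60 in the control (SE, adjusted p = 4.8e-07), with most of the rise after day 3. Sall4, a zinc finger factor of stem cells, had 431 and 404 counts in the knockdown at day 7, against 371 and 336 in the control, and at most 1.39 in any day 0 library. L1td1, an RNA-binding protein of stem cells, rose by 3.84 in the knockdown and by 4.42 in the control. Between the arms, as the mean of 5 days, 1 target was called higher in the knockdown and 0 lower, against 10.3% and 7.46% of all genes, and the list's median difference was 0.01, against 0.0011 over all genes. By day the list's median difference was 0.25 at day 0, 0.20 at day 1, -0.06 at day 3, -0.32 at day 5 and -0.08 at day 7. At day 0, 2 targets were called higher and 0 lower, against 2.49% and 0.812% of all genes. At day 7, 1 was called higher and 0 lower, against 4.65% and 1.52%. At day 5, 1 target was higher (Spp1) and 2 were lower, against 5.83% and 2.90% of all genes. The lower ones were Jarid2, a Polycomb partner, by -0.61 and Trim71, an RNA-binding repressor, by -0.65. The same 3 genes had a change from day 0 to day 7 that differed between the arms in limma's interaction, where the list's median was -0.47, against 0.02 over all genes. Of all genes 3.92% were called higher and 2.46% lower in this interaction. The one called for the mean of 5 days was Spp1, a secreted matrix protein, with 5617 and 5587 counts in the knockdown at day 7, against 2776 and 2993 in the control, and a mean difference of 0.56 ± 0.06 (SE, limma adjusted p = 3.6e-05).

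Among the epithelial genes, some of them known Klf4 targets, more were lower than higher in the knockdown. Of 16 listed and measured, 9 were lower in the knockdown and 1 higher as the mean of 5 days, against 7.46% and 10.3% of all genes, with a median of -0.48. Krt8, a keratin of simple epithelia, had 2168 and 1974 counts in knockdown libraries of day 7, against 4952 and 4478 in the controls, and its mean difference was -0.84 ± 0.06 (SE, limma adjusted p = 5.6e-07). Cldn3, a tight junction protein, differed by -0.61 and Krt19, another keratin, by -0.55. The gene that was higher was Perp, a junction protein that p53 also controls, by 0.21. By single day, 0 of the 16 were called at days 0 and 1. Called lower were 3 at day 3, 7 at day 5 and 4 at day 7, against 2.25%, 2.90% and 1.52% of all genes. Called higher were 0, 1 and 1, against 2.51%, 5.83% and 4.65%. Krt19 had 718 and 700 counts in the knockdown at day 1, against 671 and 574, and 551 and 677 at day 7, against 1831 and 1450. In both arms 15 of the 16 rose between day 0 and day 7, with medians of 5.96 in the knockdown and 6.40 in the control. Over all genes 36.2% and 38.6% rose, with medians of 0.08 and 0.09.

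Classical Myc targets moved both ways while Myc fell. Of 35 measured, 8 rose and 15 fell from day 0 to day 7 in the knockdown, and 10 rose and 15 fell in the control, with medians of -0.16 and -0.14. Over all genes 36.2% rose and 30.9% fell in the knockdown, and 38.6% rose and 33.7% fell in the control, with medians of 0.08 and 0.09. Srm, a polyamine synthesis enzyme, fell by 1.09 in the knockdown and by 1.61 in the control, whereas Ncl, the nucleolar protein nucleolin, rose by 0.62 and 0.89. Between the arms, where 10.3% of all genes were higher and 7.46% lower, 1 target was higher in the knockdown as the mean of 5 days (Ccnd2, a D-type cyclin, 0.23) and 8 were lower. Among the 8 were Ldha, lactate dehydrogenase, by -0.26, and Tfrc, the transferrin receptor, by -0.39. The list's median was -0.06, against 0.0011 over all genes. Tfrc differed in direction by day. At day 0 it had 3571 and 3220 counts in the knockdown, against 2395 and 2498, and at day 7 it had 1317 and 1222, against 1888 and 1881. The E-box was found in 7 of the 29 targets with a promoter entry (24.1%), against 7.24% of all promoters. Of the Myc paralogs and partners, 12 of 12 were measured. As the mean of 5 days 0 were higher and 2 were lower in the knockdown, Mxd1, a Max partner that opposes Myc, by -0.25, and Mycl, a Myc paralog, by -0.60. Mxd1 averaged 173 in the knockdown and 171 in the control at day 0, 215 and 214 at day 3, and 293 and 424 at day 7. Mycl overlapped between the arms at day 0 (195 and 240, against 261 and 227). It also overlapped at day 5 (77.5 and 40.9, against 60.3 and 217), where the 2 controls lay far apart.

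Factors known to replace or aid a member of the mix gave 15 measured of 19 listed, of which 0 were higher and 3 lower in the knockdown as the mean of 5 days. For these and for the Sox and POU relatives below, the shares over all genes were 10.3% higher and 7.46% lower. Klf2, a paralog that can replace Klf4, had 370 and 380 counts in knockdown libraries of day 7, against 598 and 620 in the controls, and differed by -0.58 ± 0.06 (SE, limma adjusted p = 1.1e-05). Mycl is the second of the 3. Lin28a, an RNA-binding protein that blocks let-7 maturation, was listed at 0 in 4 knockdown libraries and in 2 control libraries and reached 30.9 and 16.2 in knockdown against 43.9 and 26.5 in control libraries of day 7, with a fitted difference of -0.97 that depends on the pseudocount. Among Sox2's relatives 14 of 18 were measured and 1 was lower, Sox12 by -0.18. For the 14 listed POU genes 8 entries were measured, with more than 1 of them named Pou6f1. Of these 1 entry was lower by -0.12, the Pou6f1 entry with 831 and 861 counts in knockdown libraries of day 7. Another Pou6f1 entry, with 37.7 and 33.5 counts in those libraries, was not called.

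Genes known for silencing retroviral sequence bear on how long the viral copies stay on. Of 28 listed and measured, 0 were higher and 5 lower in the knockdown as the mean of 5 days, against 10.3% and 7.46% of all genes, with a median of -0.03, against 0.0011 over all genes. Hdac1, a histone deacetylase, had 2557 and 2402 counts in knockdown libraries of day 3, against 3225 and 3099.6 in the controls, and its mean difference was -0.30 ± 0.03 (SE, limma adjusted p = 5.7e-06). Trim28, the corepressor that KRAB zinc finger proteins bring to retroviral sequence, differed by -0.20, Uhrf1, a partner of the maintenance methyltransferase, by -0.21, Sumo2, a ubiquitin-like modifier, by -0.19 and Kdm1a, a histone demethylase, by -0.12. By single day, 6 of the 28 were lower at day 3, 1 at day 5 and 1 at day 7, against 2.25%, 2.90% and 1.52% of all genes, and 0 were higher on these days. At day 7 Uhrf1 had 2314 and 2404 counts in the knockdown, against 2434 and 2222, and Trim28 had 5687 and 6341, against 5685 and 5898. From day 0 to day 7, 17 of the 28 rose and 4 fell in the knockdown, against 36.2% and 30.9% of all genes, and 19 rose and 6 fell in the control, against 38.6% and 33.7%. Those that fell in both arms included Ehmt2, Sumo2 and Yy1, and Chaf1a and Trim28 fell in the control. Dnmt3b, a de novo DNA methyltransferase, rose by 3.06 in the knockdown and by 3.39 in the control. The part of these genes in the Pou5f1 level was not tested.

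**Figure D5:**
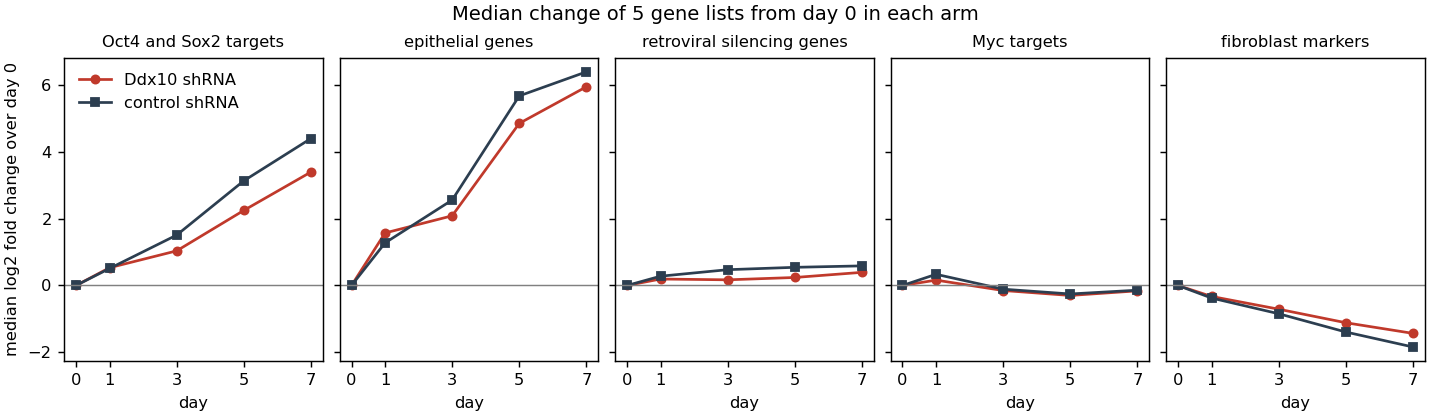
Median log2 fold change from day 0 (y axis) of 5 gene lists by day (x axes), with red circles for the Ddx10 shRNA and dark squares for the control. At day 7 the medians of the Oct4 and Sox2 targets are 3.40 in the knockdown and 4.41 in the control, and those of the epithelial genes 5.96 and 6.40.

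Markers of other cells moved with arm and day as well. Of the 16 fibroblast markers 4 were higher and 0 lower in the knockdown as the mean of 5 days, against 10.3% and 7.46% of all genes, namely Dcn by 0.28, Fn1 by 0.15, Col1a1 by 0.20 and Postn by 0.35. Single days also went the other way. Col1a1 had 135780 and 145812 counts in the knockdown at day 0, against 185683 and 174874, and Fn1 had 130225 and 142209, against 170258 and 142370. Dcn had 2927 and 3508 at day 1, against 3900 and 4020. The summed level of the 16 markers was 450490 to 474630 in the knockdown at day 0, against 532770 to 569730 in the control, and 199370 to 211940 at day 3, against 164720 to 173390. At day 7 it was 152940 to 168510, against 140600 to 146220. Col1a1, Col1a2 and Fn1 were a large part of this sum, averaging 180280, 158670 and 156310 in the control at day 0. It therefore does not stand for all 16 markers. From day 0 to day 7, 4 of the 16 rose and 12 fell in the knockdown, against 36.2% and 30.9% of all genes. In the control 2 rose and 12 fell, against 38.6% and 33.7%. Of 13 measured macrophage and blood markers 3 were higher in the knockdown (Lyz2, Laptm5 and Itgam) and 0 lower as the mean of 5 days, against the same 10.3% and 7.46% of all genes. At day 7 Laptm5 was higher, by 0.62, and Cd68 lower, by -0.65 on the log2 scale, where 4.65% of all genes were called higher and 1.52% lower. The 13 markers summed to 4318 to 4323 in the knockdown at day 0, against 2984 to 4269 in the control, and to 1460.1 to 1541 at day 7, against 1249 to 1268. Laptm5 was a large part of the day 7 sums, with 1021 and 952 counts in the knockdown, against 592 and 695 in the control. These sums therefore do not stand for the whole list. Laptm5 had 403 and 264 (knockdown) and 258 and 263 (control) at day 0. From day 0 to day 7, 1 of the 13 rose and 8 fell in the knockdown, against 36.2% and 30.9% of all genes. In the control 3 rose and 8 fell, against 38.6% and 33.7%. Tyrobp, C1qa, C1qb, C1qc and Fcer1g were at 0 in between 1 and 5 of the 10 knockdown libraries and in between 5 and 8 of the 10 control libraries, while Cd68 was at 133 or more in every library. The part of these cells in the Pou5f1 difference was not tested.

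The genes whose log2 values were most like each factor over the 20 libraries were sought among 11559 genes with a mean of at least 50. For Pou5f1 they were Ust, Adam19, Slc35d1, Trim11 and Sema7a, with Pearson r between 0.851 and 0.894. For Sox2 they included Orai1, Rbm38, Tmem43 and Sap130 (0.938 to 0.953), and for Klf4 Psca, Sppl2b, Tnfsf9, Arhgap27 and Msc (0.923 to 0.937). For Myc they were Akt1, Igf2bp3, Slc7a5, Eif3b and Ccdc86 (0.967 to 0.972). Among the factors themselves r was 0.858 for Sox2 with Klf4 and 0.402 for Pou5f1 with Klf4. These are descriptions over libraries that share their day and their scaling.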

How the data were processed

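RNA of 20 libraries was measured by sequencing. The signal in the table deposited by the authors is normalized read counts per gene. Tools named in the submitters' processing notes are DESeq2 1.22.0, RSEM 1.2.22, STAR 2.5.2a and Trim Galore 0.4.4, with the genome mm10; the normalization step itself is not given in the sources used here. Whole reads could not be recovered from the values, so no count test was run, and depth was estimated at 12.0 M to 23.7 M per library. Of the gene IDs, 15665 were in the GENCODE annotation and 92 were not, and 23 symbols were restored from it.

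Values were taken as log2(value + 1). A filter of at least 1 in at least 2 libraries removed 0 of 15757 genes. One limma 3.58.1 fit (R 4.3.3) with 10 group means, trend and robust settings and 10 residual degrees of freedom gave 24 contrasts, with Benjamini-Hochberg adjustment over all genes of a contrast and a threshold of 0.05. Fold changes on this scale understate changes of low genes. The procedure was tested on simulated data. Alternatives covered the pseudocount, a filter, scaling, fit settings, a replicate block and each left-out library; 2 were added after seeing the data. The named genes are the 4 factors, the target of the hairpin, the 5 genes most like each factor (1 of them is not reported here) and, from each list, members among the 3 with the smallest p for the mean difference between arms and the 3 for day 7 against day 0 in the control. Where 5 or fewer members of a list were called, members were named after their values were seen. The factors and lists were chosen with earlier results of these data known. Figures were drawn with matplotlib 3.10.9.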

Additional observations from a re-analysis of the deposited data

Results flagged for a closer look

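The change of Ddx10 from day 0 differed between the arms at day 1, by an interaction of -0.89 on the log2 scale (knockdown minus control, limma adjusted p = 0.034), and at day 3, by -0.62 (limma adjusted p = 0.048). Ddx10 rose after day 0 in the control, to 804 and 921 at day 1, while the knockdown had 255 and 321.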

How the results depend on the processing

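The mean Pou5f1 difference kept its direction and call in all 29 alternatives. Its single-day difference at day 3 (0.23) lost its call in the fit to the compared libraries alone (0.23), without trend or robust settings (0.23), scaled to the column sum (0.21) and by quantiles (0.17), and lay at 0.19 to 0.28 with 1 library left out; at day 7 that range was 0.28 to 0.31. At day 1 it passed at 0.34 (column sum) and 0.40 (quantile), and without control replicate 2 of that day (0.33, the range over left-out libraries being 0.28 to 0.33), and at day 5 at 0.18 (library weights). The Pou5f1 interactions ranged over 0.17 to 0.37 (day 1) and 0.16 to 0.36 (day 7) with 1 library left out. Sox2 at day 7 passed at 0.18 in the compared libraries alone and with weights.

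Changes from day 0 depended on scaling to the column sum and by quantiles, given in that order. For Pou5f1 they became 0.16 and 0.27 (day 1, knockdown), 0.23 and 0.48 (day 5, knockdown), 0.13 and 0.43 (day 5, control), 0.23 and 0.47 (day 7, knockdown) and 0.037 and 0.30 (day 7, control). For Sox2 they became 0.31 and 0.39 (day 5, knockdown), 0.15 and 0.16 (day 5, control), 0.37 and 0.46 (day 7, knockdown) and 0.20 and 0.24 (day 7, control). For Klf4 at day 7 they kept their sign and became 0.47 and 0.70 in both arms, and Myc at day 1 in the control became 0.032 by column sum. Pou5f1 at day 7 in the knockdown passed at -0.13 (compared libraries alone, and weights) and -0.19 (trimmed mean). Sox2 at day 7 in the control lost its call at -0.22 in the compared libraries alone, with -0.35 to -0.094 on leaving out 1 library. Apart from the scalings, whose construction moves all genes, the cause was not tested.

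Genes called between the arms moved most at day 0 (521, but 2 in the compared libraries alone) and day 1 (23, but 0, and 18 to 743 on leaving out 1 library). The calls at day 0 were 100 to 530 on leaving out 1 library, 296 without trend or robust settings, 304 by quantiles and 876 by column sum. On leaving out 1 library they were 74 to 296 at day 3, 459 to 974 at day 5 and 286 to 553 at day 7. Library weights, equal within each group, gave 1390 at day 3 (751), 2188 at day 5 (1376) and 2127 at day 7 (972). At day 7 the compared libraries alone gave 1725. Between day 3 and day 5 in the knockdown 2351 genes were called, 3542 with weights and 1173 to 1274 with 1 library left out. Between day 5 and day 7 weights gave 388 in the knockdown (36) and 1195 in the control (143), and the day 1 interaction gave 1 (compared libraries alone) to 101 (pseudocount 0.1), against 43. The 5-day mean uses all libraries, so no fit to compared libraries alone was run for it. Replicate numbers did not pair the libraries: deviations of 5 same-day pairs correlated at -0.0503 to 0.0838. With the replicate block the day 3 Pou5f1 difference was 0.23, no longer past the threshold, and 12 genes were called at day 1.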
